A study of Glycine max with 18 samples.

Results

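The bZIP transcription factor family was followed through the compartments of the soybean seed. Members were the genes whose symbol or synonym is BZIP or GmbZIP with a number and that had an array probe set matched to no other gene. There were 67 such genes among 89 of that name in the gene table, and 58 were described, each read from 1 of the 37593 soybean probe sets. The other 9 (BZIP21, BZIP35, BZIP58, BZIP61, BZIP69, BZIP72, BZIP81, BZIP82 and BZIP112) did not reach a signal of 100 on at least 2 arrays, the minimum for testing that 31961 soybean probe sets passed. The seeds, of cultivar Asgrow A3237, were 2.5 to 3 mm long and held cotyledon-stage embryos, and the plants grew at 22 °C under 16 h light and 8 h dark. A laser microscope cut 8 compartments from 8 µm paraffin sections: the embryo proper, the suspensor (the stalk between embryo and seed coat), the endosperm, and 5 seed coat parts, which are the epidermis, the hilum (the attachment scar), the outer and inner integument and the endothelium. Whole seed formed the last group, and each group had 2 arrays, 18 in all. No plant was treated or genetically altered according to the labels, which do not say whether the arrays of a group came from separate plants or how many seeds an array pooled. The p-values reflect the spread of arrays within groups, which may be technical, and 2 arrays per group limit the precision of every value.

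bZIP proteins carry a basic region that contacts DNA and a leucine zipper through which they pair, and the makeup of the pair affects which site is bound. Many plant members bind sites with an ACGT core, among them the G-box and the abscisic acid response element. In Arabidopsis, AREB/ABF and ABI5 proteins of this family carry the abscisic acid response, ABI5 and bZIP53 act on seed maturation genes, HY5 acts in light signalling and TGA factors in defence and flower development. Numbers of members are those of the gene table, which need not match the numbering of published studies.

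A signal is a linear brightness per probe set. Signals of different probe sets, and so of different genes, were not compared, apart from the compartment markers, whose signals were summed. On each array 56.7% to 67.5% of soybean probe sets reached 100, and the 95th percentile of the 23442 probe sets for other organisms, a measure of background, ran from 107 to 219. Members under 50 on an array were set to 50 before the log2 was taken, and a fold is a ratio of geometric means of those values. Of the 58 members, 35 reached 100 on all 18 arrays and 11 on 9 or fewer, and 29 were above the background percentile on all 18. Just outside the minimum were BZIP112 and BZIP69, each at 100 or more on 1 array (highest signals 127 and 145), and just inside was BZIP44, on 2 arrays. The 2 embryo markers chosen were KTI3, a protease inhibitor gene, and A1, a storage protein gene. They summed to 6844 and 7324 in embryo proper, to 778 and 1008 in suspensor and to at most 309 on any other captured array. The summed signal of the 3 seed coat markers SCB1, PRX2 and Ep was 22159 to 199224 in the seed coat parts, 15300 to 31254 in suspensor, 4873 and 5231 in endosperm, and 3264 and 3774 in embryo proper. SCB1 and PRX2 carried that sum, whereas Ep went against its label, with 106 to 321 in the seed coat parts, at most 520 on any captured array, and 4450 and 3493 in whole seed. ANR1, a proanthocyanidin gene chosen as the endothelium marker, also went against its label: it gave 134 and 503 in endothelium but 14224 to 39338 in epidermis and hilum.

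Of the 58 members, 39 (67.2%) differed among the 8 compartments by the moderated F-test of limma at an adjusted p under 0.05, against 56.9% of all probe sets tested and 75.4% of the 5703 genes read in the same way from a probe set with 1 symbol. The family therefore stood between those backgrounds. Its median distance from lowest to highest compartment mean was 3.70-fold, against 3.32-fold for all tested and 3.94-fold for genes with 1 symbol. Both arrays of the highest compartment were above the other 14 captured arrays for 28 members, or 48.3%, against a background of 37.5%. A member that met the minimum only through the compartment where it is high had to differ, so these shares describe the family and support nothing further. In bulk samples, fewer cells of a type and less RNA per cell cannot be told apart.

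The heat map of all members by array orders them by the compartment of their highest mean. Suspensor and inner integument each held the highest mean of 11 members (19%), where all tested probe sets gave 13.1% and 15.6%. Outer integument held 9 (15.5%, against 13.2%), endosperm and hilum 8 each (13.8%, against 15.9% and 15.7%), endothelium 5 (8.62%, against 6.61%), embryo proper 4 (6.9%, against 10.9%) and epidermis 2 (3.45%, against 8.96%). The lowest mean lay in endosperm for 14 members and in inner integument for 2, where all tested probe sets gave 17% and 12.1%. Against the mean of the other 7 compartments, 43 members had a call (an adjusted p under 0.05) in at least 1 compartment and 15 had none. The 74.1% with a call lay between the 64.5% of all tested probe sets and the 80.5% of genes with 1 symbol. The bar plot of calls by compartment sets these counts beside the share of all probe sets tested. A call compares 1 compartment with a mean over the others, so a called member can still be as high elsewhere.

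**Figure D1:**
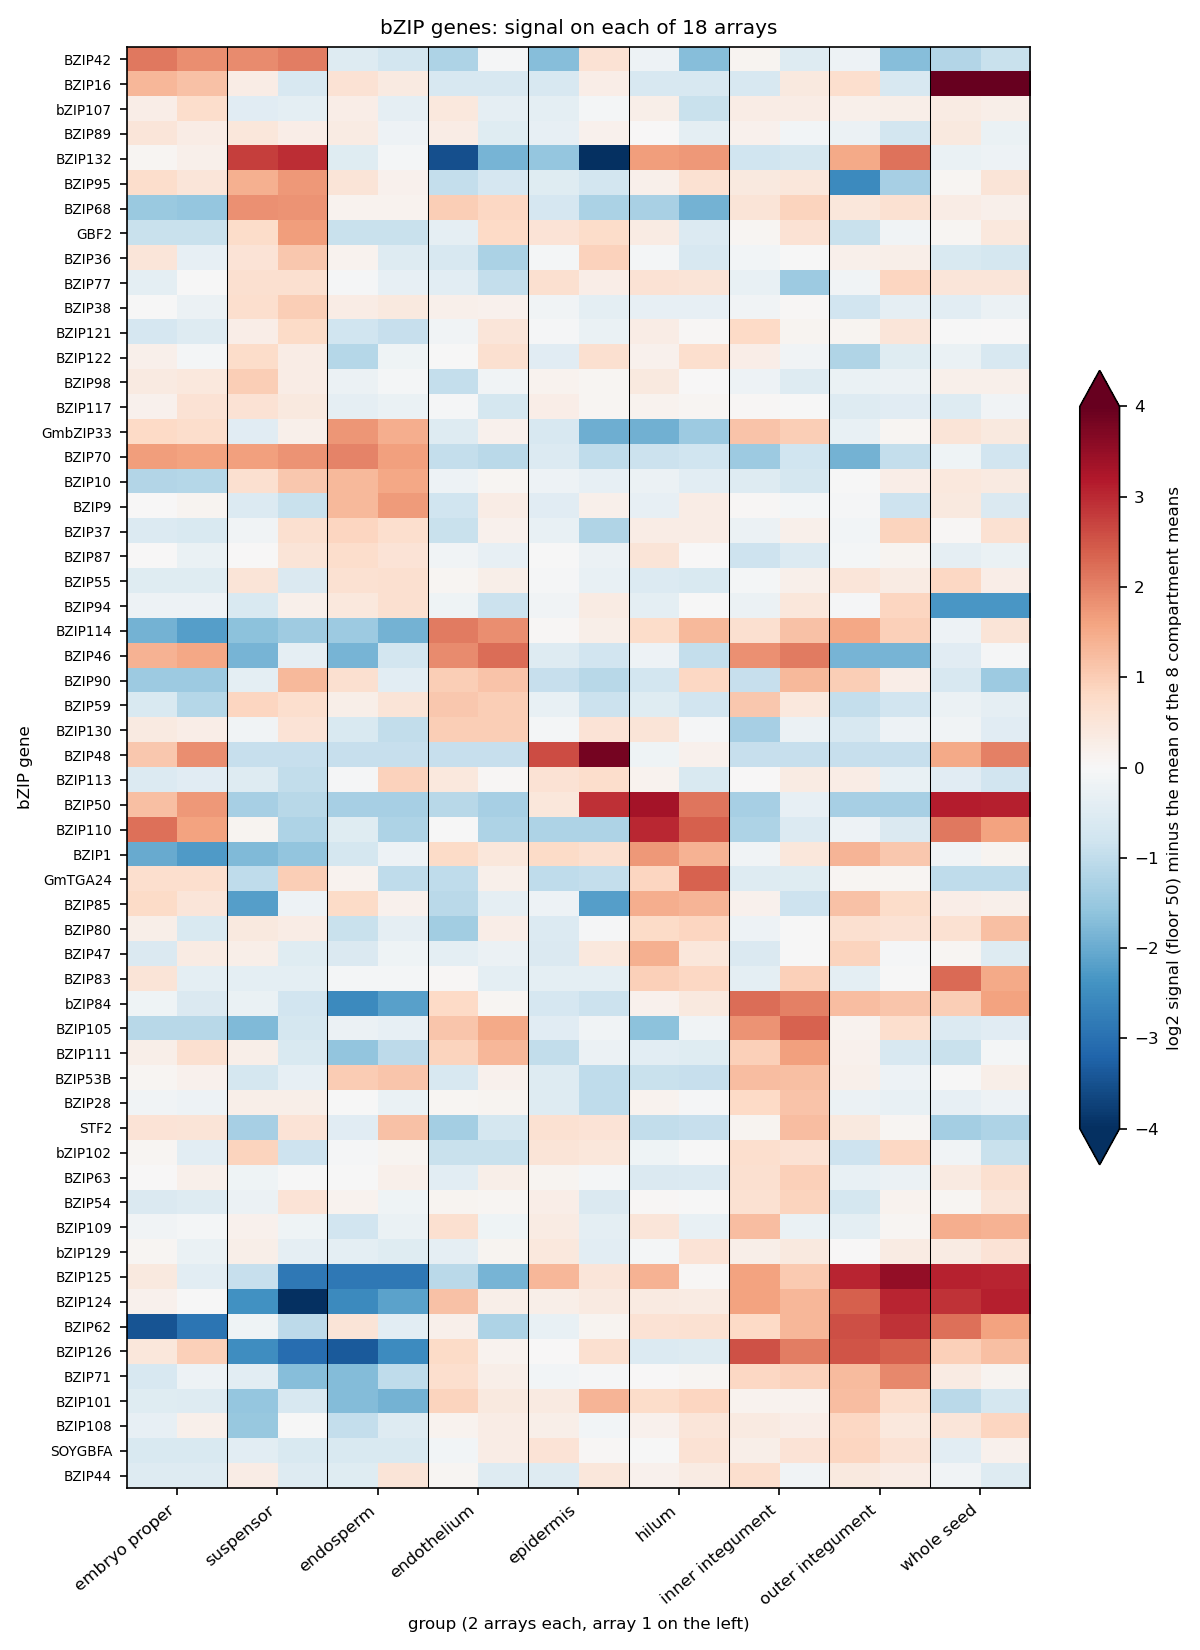
Each row is a bZIP gene and each column an array, 2 for each of the 9 groups. Colour gives log2 signal (floor 50) minus the mean of the gene's 8 compartment means, capped at 4 on either side, with genes ordered by the compartment of their highest mean. BZIP125, BZIP124, BZIP62 and BZIP126 form the block that is dark red in outer integument, and BZIP16 goes past the cap on both whole seed arrays.

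**Figure D2:**
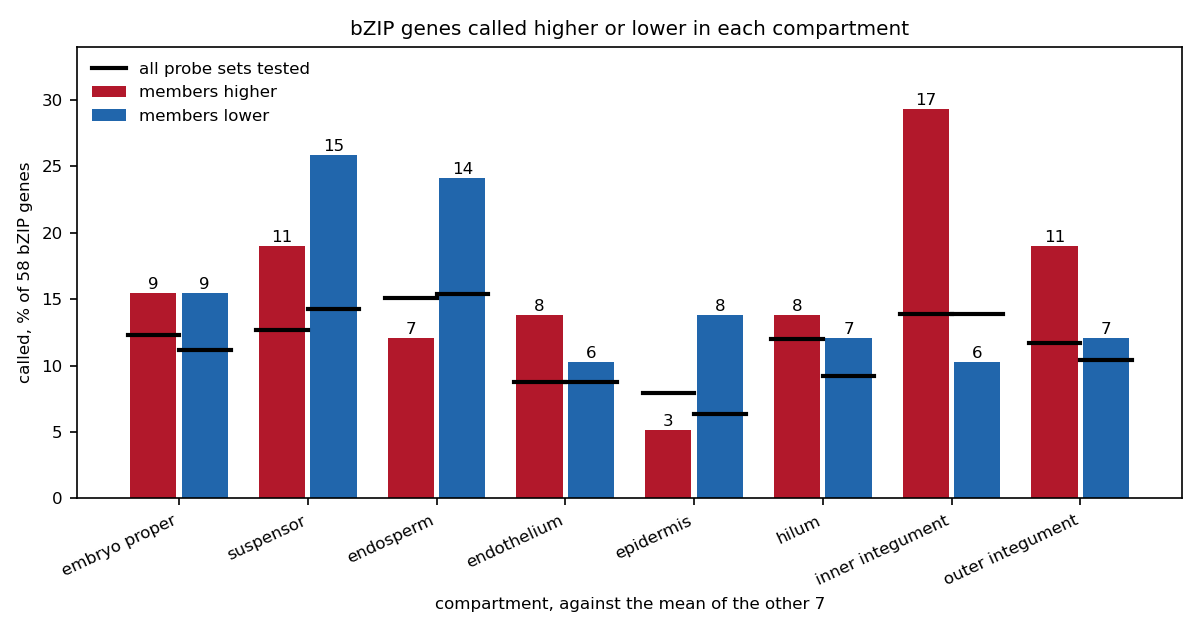
Bars give the percentage of the 58 bZIP genes that were higher (red) or lower (blue) in a compartment than the mean over the other 7 at an adjusted p under 0.05, with the number of genes above each bar. Black lines give the percentage of all 31961 probe sets tested. The tallest bar against its line is that of the 17 genes higher in inner integument, 29.3% against 13.9%.

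In outer integument, 11 members were higher than the mean over the other 7 compartments (19% of members, background 11.7%) and 7 were lower (12.1%, background 10.4%). BZIP125, BZIP62 and BZIP124 led the higher members, with BZIP126 next at 6.94-fold higher. BZIP95, BZIP46 and BZIP70 led the lower ones.

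BZIP125 gave signals of 2988 and 4109 in outer integument, 1095 and 736 in inner integument, 898 and 503 in epidermis, and 933 and 368 in hilum. It gave 468 and 271 in embryo proper, 169 and 100.2 in endothelium, 192 and 21.7 in suspensor, and 18.4 and 5.1 in endosperm; whole seed gave 3009 and 2979. Both outer integument arrays were above every other captured array, and both endosperm arrays were under the floor. The difference from the other 7 was 13.5-fold higher (log2 difference 3.75, SE 0.43, adjusted p = 3.11e-06). Outer integument was also higher than inner integument, the next in order (adjusted p = 0.0192), whereas inner integument, epidermis, hilum and embryo proper did not pass against their neighbours in that order (adjusted p = 0.425 to 0.917).

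BZIP124 gave 4589.8 and 7116 in outer integument, 2667 and 2203 in inner integument, and 1962 and 1027 in endothelium. Its other signals were 1114 and 1098 in hilum, 1013 and 1126 in epidermis, 978 and 853 in embryo proper, 149 and 196 in endosperm, and 162 and 15.9 in suspensor; whole seed gave 6489.8 and 7516. Suspensor and endosperm were the low compartments, and the 2 outer integument arrays did not overlap with any other captured array. Its difference was 8.61-fold higher (log2 difference 3.11, SE 0.32, adjusted p = 9.04e-07), and outer over inner integument passed narrowly (adjusted p = 0.0483). A probe set that matched BZIP124 and BZIP126 together was left out.

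BZIP62 gave 6189 and 7764 in outer integument, 1806 and 2605 in inner integument, and 1552 and 1599 in hilum. The remaining compartments gave 1492 and 777 in endosperm, 849 and 1125 in epidermis, 1213 and 441 in endothelium, 923 and 505 in suspensor, and 95.8 and 137 in embryo proper; whole seed gave 4821 and 3203. Outer integument stood above all and embryo proper below all, with no overlap on either side. The outer integument difference was 8.69-fold higher (adjusted p = 1.18e-06). Of its 2 other probe sets tested, 1 gave a log2 difference of 2.25 and the other of 2.05 for the same comparison, both called.

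BZIP126 was high in both integuments: 19161 and 17589 in outer integument, and 19817 and 13977 in inner integument. Its other signals were 4573 and 6475 in embryo proper, 5691 and 3705 in endothelium, 3393 and 5299 in epidermis, 2316 and 2354 in hilum, 605 and 412 in suspensor, and 327 and 594 in endosperm; whole seed gave 6556 and 7794. The 4 integument arrays lay above all others, and suspensor and endosperm lay below all others. Outer against inner integument did not pass (adjusted p = 0.827), while inner integument was higher than embryo proper, the next in order (adjusted p = 0.000553). Across the 8 compartment means the log2 profiles of BZIP124 and BZIP126 had a Pearson r of 0.954, those of BZIP124 and BZIP125 of 0.857 and those of BZIP125 and BZIP126 of 0.850, as a description over compartments that share the same arrays. Because another probe set matched BZIP124 and BZIP126 together, binding of related transcripts cannot be told apart from like levels for that pair.

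On the low side, BZIP95 gave 2882 and 3549 in suspensor, 1742 and 1502 in embryo proper, 1233 and 1638 in hilum, and 1391 and 1450.3 in inner integument. It then gave 1519.8 and 1207 in endosperm, 756 and 637 in epidermis, 546 and 676 in endothelium, and 183 and 425 in outer integument; whole seed gave 1134 and 1519. Its outer integument arrays were below all other captured arrays, 4.63-fold lower (adjusted p = 4.25e-06), a fold of 3.03 without array 1 and 7.07 without array 2. BZIP46 gave 665 and 842 in endothelium, 641 and 752 in inner integument, and 471 and 523 in embryo proper. It then gave 157 and 92.8 in hilum, 125 and 105 in epidermis, 21.6 and 141 in suspensor, 7.8 and 107 in endosperm, and 45.6 and 46 in outer integument; whole seed gave 131 and 172. It was at least 4.32-fold lower (adjusted p = 0.000784), with both outer integument arrays under the floor, as were 1 suspensor and 1 endosperm array, and without a floor the call was lost (adjusted p = 0.0595). Here and for other lost calls the p given is the highest over all alternatives of that comparison. BZIP70 was 3.08-fold lower (adjusted p = 4.72e-05). Leaving out outer integument array 1 took the 18 calls to 11, and so did leaving out the 3 captured arrays whose background was high beside their partner's (epidermis 2, inner integument 1 and outer integument 1). The lower side of the BZIP46 comparison lay under the background percentile of its arrays (177), so the size of that fold depends on background.

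**Figure D3:**
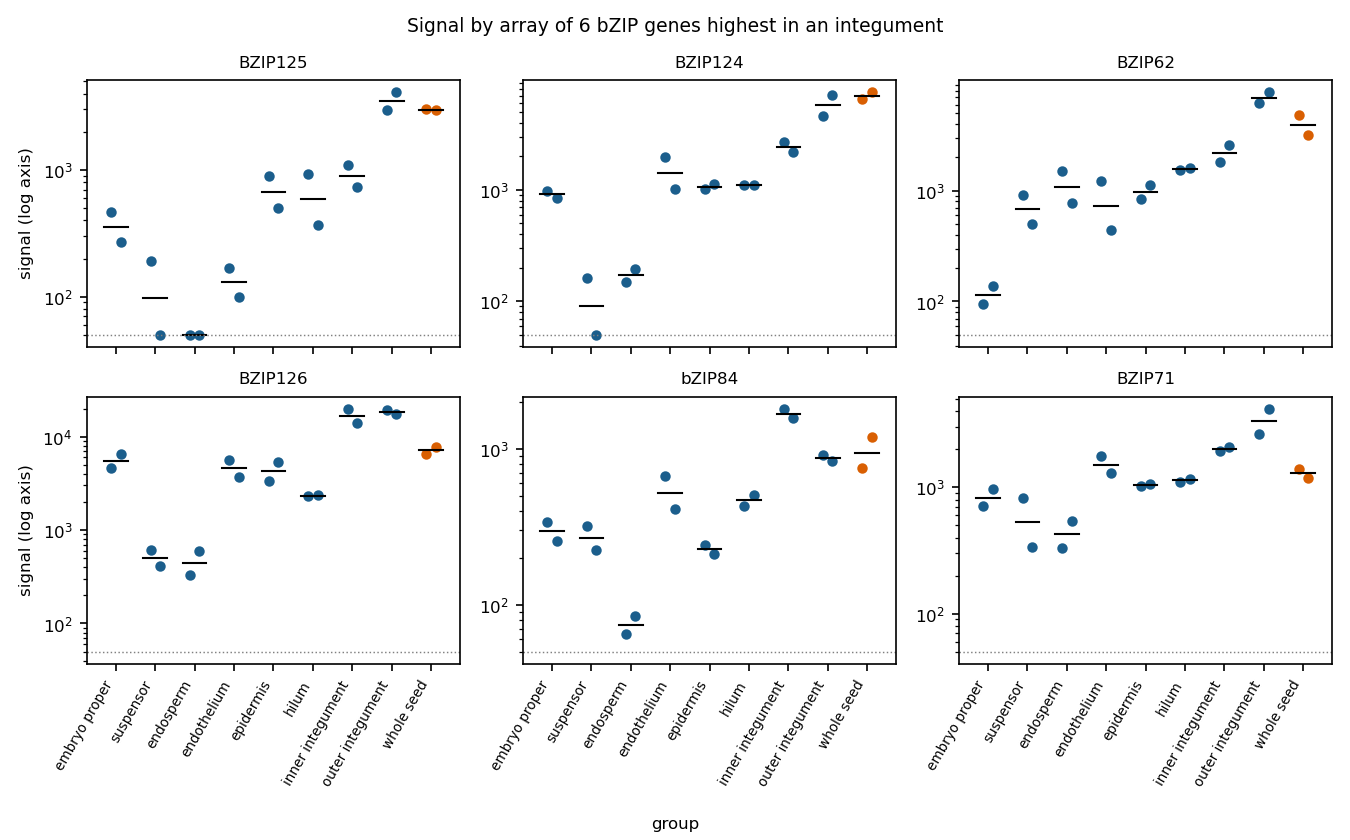
Signal on a log axis for 6 bZIP genes whose highest captured compartment is an integument, with 2 points per group, bars at the geometric mean, whole seed in orange and the floor of 50 as a dotted line. BZIP125, BZIP124 and BZIP62 are highest among the captures in outer integument, at 2988 to 7764, whereas BZIP126 is high in both integuments. bZIP84 peaks in inner integument and BZIP71 in outer integument.

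In inner integument, 17 of the 58 members were higher than the mean over the other 7 (29.3%, background 13.9%) and 6 were lower (10.3%, background 13.9%). BZIP126, bZIP84 and BZIP105 led the higher members, and BZIP70, BZIP48 and BZIP77 the lower ones. The median member was higher by 0.26 on the log2 scale, against a median of 0.01 for all tested. Without inner integument array 1 the 23 calls became 15, of which 13 were higher, and without array 2 they became 13, of which 10 were higher. Without the 3 high-background arrays there were 14, of which 12 were higher.

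The gene listed as LOC100127361, with the synonym bZIP84, gave 1795 and 1565 in inner integument, 907 and 829 in outer integument, 667 and 408 in endothelium, and 430.2 and 506 in hilum. Lower signals were 339 and 257 in embryo proper, 317 and 225 in suspensor, 243 and 210.4 in epidermis, and 65.1 and 84.8 in endosperm; whole seed gave 752 and 1182. Both inner integument arrays were above all others and both endosperm arrays below all others. Its difference was 5.39-fold higher (log2 difference 2.43, SE 0.29, adjusted p = 4.17e-06), but inner over outer integument did not pass (adjusted p = 0.0989). BZIP126 was 6.21-fold higher (log2 difference 2.63, SE 0.24, adjusted p = 1.36e-07).

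BZIP105 gave 1556 and 2331 in inner integument, 968 and 1292 in endothelium, and 502 and 721 in outer integument. It gave 387 and 363 in endosperm, 329.7 and 411 in epidermis, 146 and 410.3 in hilum, 211 and 207 in embryo proper, and 133 and 279 in suspensor; whole seed gave 309 and 331. The inner integument arrays did not overlap with any other, and the endothelium arrays came next. It was 5.17-fold higher (adjusted p = 4.84e-05). Another of its probe sets gave a log2 difference of 2.22 (adjusted p = 2.27e-05), but one more gave 0.62 (adjusted p = 0.269).

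Of the lower members, BZIP70 was 2.41-fold lower (adjusted p = 0.000413). BZIP77 gave 1078 and 1079 in suspensor, 1041 and 994 in hilum, 1085 and 842 in epidermis, and 631 and 1257 in outer integument. Lower signals were 677 and 558 in endosperm, 531 and 691 in embryo proper, 516 and 359 in endothelium, and 565 and 255 in inner integument; whole seed gave 986 and 983. It was 2.01-fold lower (adjusted p = 0.016), but its inner integument arrays differed from each other and the call was lost without array 2 (adjusted p = 0.449). BZIP48 was called lower (adjusted p = 0.0316), with both arrays under the floor and the mean of the other 7 under the background percentile, so no fold is given, and the call was lost under 5 alternatives.

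In embryo proper, 9 members were higher (15.5%, background 12.3%) and 9 were lower (15.5%, background 11.2%) than the mean over the other 7 compartments. BZIP42, BZIP110 and BZIP70 led the higher members. The lower ones were led by BZIP62, at 12.5-fold lower, BZIP1 and BZIP114. BZIP1 is listed with the synonym AREB1, the name of abscisic acid response element binding factors. Without embryo proper array 1 the 18 calls became 10, and without array 2 they became 9.

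BZIP42 was high in both parts of the embryo: 711 and 591 in embryo proper, and 599.5 and 669 in suspensor. Elsewhere it gave 175 and 114 in inner integument, 6.7 and 242 in epidermis, 113 and 98.5 in endosperm, 69 and 159 in endothelium, 142 and 13.6 in hilum, and 141 and 31.6 in outer integument; whole seed gave 72 and 87.9. The 4 embryo arrays were above all other captured arrays, of which 3 were under the floor. The embryo proper difference was 4.84-fold higher (adjusted p = 0.00366), which was lost without array 1 of that compartment (adjusted p = 0.0755), and the suspensor difference was 4.72-fold higher (adjusted p = 0.00367). The lower sides of both lay under the background percentile of their arrays (169 and 163).

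BZIP70 was high in embryo and endosperm: 7898 and 6284 in endosperm, 6225 and 7063 in suspensor, and 6468 and 6171 in embryo proper. In the seed coat it gave 1387 and 1001 in epidermis, 1104 and 1154 in hilum, 1031 and 949 in endothelium, 744 and 1171 in inner integument, and 548 and 1036 in outer integument; whole seed gave 1786 and 1189. The 6 embryo and endosperm arrays, all at 6171 or more, were clear of the 10 seed coat arrays, all at 1387 or less. It was 3.69-fold higher (adjusted p = 7.82e-06) in embryo proper. The name of its probe set marks that it may also bind related transcripts. The gene's other probe set tested gave a log2 difference of 0.64 for embryo proper (adjusted p = 0.269) and -0.29 for endosperm (adjusted p = 0.612).

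BZIP110 gave 950.3 and 622 in hilum. In embryo proper it gave 546 and 362. It gave 103 and 79 in outer integument, 127 and 44 in suspensor, 118 and 32.9 in endothelium, 83.9 and 24.3 in endosperm, 45.2 and 81.5 in inner integument, and 13.4 and 25 in epidermis; whole seed gave 507 and 358. Hilum and embryo proper stood above all other captured arrays and did not pass against each other (adjusted p = 0.37), and 6 captured arrays were under the floor. The embryo proper difference was 4.53-fold higher (adjusted p = 0.000824), with a lower side under the background percentile. Of its 2 other probe sets tested, 1 gave a log2 difference of 1.82 and was called, and the other gave -0.68 (adjusted p = 0.33).

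BZIP62 was lower in embryo proper than on any other captured array, and its embryo proper difference was log2 -3.64 (SE 0.33, adjusted p = 1.75e-07). BZIP1 gave 790 and 629 in hilum, 607 and 508 in outer integument, 402 and 372 in epidermis, and 401 and 329 in endothelium. Its other signals were 218 and 324 in inner integument, 147 and 205 in endosperm, 70.3 and 79.7 in suspensor, and 59.5 and 46.7 in embryo proper; whole seed gave 216 and 258. All 4 embryo arrays were below the endosperm and seed coat arrays, and the embryo proper arrays were the lowest. It was 5.39-fold lower (adjusted p = 1.24e-05). The mean of its embryo proper arrays, 54.5, was under the background percentile of 139.6, as was that of BZIP62, 114.6, so the sizes of these folds depend on background.

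BZIP114 gave 5100.4 and 4443 in endothelium, 3554 and 2341 in outer integument, 2032 and 3002 in hilum, 1889.5 and 2726 in inner integument, and 1263 and 1431 in epidermis. It gave 389 and 455 in suspensor, 450.2 and 329.7 in endosperm, and 327 and 265 in embryo proper; whole seed gave 1064 and 1744. The 10 seed coat arrays, all at 1263 or more, were above the 6 embryo and endosperm arrays, all at 455 or less. It was 5.08-fold lower (adjusted p = 8.99e-07), and the step from epidermis to suspensor in its order passed (adjusted p = 0.000727). Its 2 other probe sets tested gave log2 differences of -0.49 and -0.43 in embryo proper, neither called.

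In suspensor, 11 members were higher (19%, background 12.7%) and 15 were lower (25.9%, background 14.3%). BZIP132, BZIP42 and BZIP68 led the higher members, and BZIP68 and BZIP95 were higher there than in each of the other 7 compartments. BZIP124, BZIP126 and BZIP125 led the lower members, and all of them were among the higher members of outer integument.

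BZIP132 gave 5583 and 6369 in suspensor, 2354 and 3700.2 in outer integument, and 2631 and 2735 in hilum. The rest gave 869.7 and 949 in embryo proper, 593 and 778 in endosperm, 480.3 and 503 in inner integument, 72.5 and 227 in endothelium, and 280.4 and 24.8 in epidermis; whole seed gave 686 and 725. Both suspensor arrays were above all others and the endothelium and epidermis arrays below all others. The difference was 9.57-fold higher (log2 difference 3.26, SE 0.44, adjusted p = 1.39e-05), but suspensor did not pass against outer integument, the next in order (adjusted p = 0.219).

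BZIP68 gave 20828 and 20201 in suspensor, 11444 and 10369 in endothelium, 8386 and 10768 in inner integument, and 7933 and 8951 in outer integument. It gave 6351 and 6408 in endosperm, 3665 and 2408 in epidermis, 2084 and 1981 in embryo proper, and 2359 and 1554 in hilum; whole seed gave 7195 and 6759.9. Its 2 suspensor arrays were above every other array, and hilum and embryo proper were lowest together with epidermis. It was 4.22-fold higher (log2 difference 2.08, SE 0.17, adjusted p = 3.35e-08). The gene's other probe set tested gave a log2 difference of 0.26 (adjusted p = 0.589).

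Among the lower members, BZIP124 was 13.3-fold lower (adjusted p = 5.87e-08), a fold that was 24.03 without suspensor array 1 and 7.40 without array 2, and BZIP126 was 8.87-fold lower (adjusted p = 1.10e-08). BZIP125 was 4.43-fold lower (adjusted p = 0.000895), which was 8.67-fold without suspensor array 1 and lost its call without array 2 (adjusted p = 0.0959). For BZIP124 and BZIP125 the array 2 signals of 15.9 and 21.7 were under the floor, and array 1 gave 162 and 192. The seed coat marker SCB1 gave 15430 on suspensor array 1 and 421 on array 2, and its part in these values was not tested. Without array 1 the 26 calls became 15, of which 6 were lower, and without array 2 they became 17, of which 9 were lower.

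In endosperm, 7 members were higher (12.1%, background 15.1%) and 14 were lower (24.1%, background 15.4%). BZIP70, GmbZIP33 and BZIP9 led the higher members. BZIP126, BZIP125 and bZIP84 led the lower ones, and all of them were among the higher members of inner integument. Without endosperm array 1 the 21 calls became 13, with 5 higher and 8 lower.

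GmbZIP33 (listed as LOC780550, synonym bZIP53A) gave 29955 and 24509 in endosperm, 19386 and 17518 in inner integument, 15252 and 14552 in embryo proper, and 7171 and 9376 in outer integument. It gave 6474 and 10217 in suspensor, 6139 and 9880.1 in endothelium, 5649.8 and 2280.3 in epidermis, and 2321 and 3219 in hilum; whole seed gave 12688 and 11739. Both endosperm arrays were above all other captured arrays, with inner integument next. It was 3.59-fold higher (log2 difference 1.84, SE 0.25, adjusted p = 1.60e-05). Its near namesake BZIP53B gave 5229 and 5109 in inner integument, 4413 and 4783 in endosperm, and 2317 and 2502 in embryo proper. It then gave 2519 and 1929 in outer integument, 1418 and 2499 in endothelium, 1349 and 1749 in suspensor, 1529.6 and 1089 in epidermis, and 1177 and 1166 in hilum; whole seed gave 2179 and 2601. The 2 probe set names share a stem, so binding of related transcripts cannot be told apart from like levels, and their profiles had a Pearson r of 0.920 over 8 compartment means.

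BZIP9 gave 645 and 844 in endosperm. Other signals were 267 and 281 in embryo proper, 209 and 322 in hilum, 270.4 and 248 in inner integument, 189.9 and 302 in epidermis, 152 and 323 in endothelium, 255 and 148 in outer integument, and 177 and 139.7 in suspensor; whole seed gave 342 and 174. Its 2 endosperm arrays were above all other captured arrays, which ran from 139.7 to 323, and above both whole seed arrays. It was 3.27-fold higher (adjusted p = 0.00191), and without endosperm array 2 the call was lost (adjusted p = 0.0575). BZIP70 was 4.18-fold higher (adjusted p = 2.18e-06). On the low side BZIP126 was 10.2-fold lower (adjusted p = 5.83e-09), BZIP125 was at least 9.54-fold lower (adjusted p = 1.20e-05) and bZIP84 was 6.53-fold lower (adjusted p = 1.19e-06), the last 2 with endosperm means under the background percentile of 143.7.

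In endothelium, the innermost layer of the seed coat, 8 members were higher (13.8%, background 8.76%) and 6 were lower (10.3%, background 8.8%). BZIP46, BZIP114 and BZIP105 led the higher members. BZIP132, BZIP125 and BZIP70 led the lower ones. The BZIP46 signals of 665 and 842 were matched by 641 and 752 in inner integument and 471 and 523 in embryo proper, and it was 5.1-fold higher (adjusted p = 0.000362), with a lower side under the background percentile. BZIP114, whose endothelium arrays of 5100.4 and 4443 were the highest captured, was 4.74-fold higher (log2 difference 2.24, SE 0.25, adjusted p = 2.42e-06), but did not pass against outer integument, the next in order (adjusted p = 0.139). Its other probe sets gave log2 differences of 0.12 and -0.43, neither called. BZIP105 was 2.82-fold higher (adjusted p = 0.00608), a call lost without endothelium array 2 (adjusted p = 0.129). BZIP132 was 8.41-fold lower (log2 difference -3.07, SE 0.44, adjusted p = 5.09e-05), a fold that was 4.76 without endothelium array 1 and 14.9 without array 2. Its endothelium signals of 72.5 and 226.5 stood against background percentiles of 124.3 and 135.8, so the size of the fold depends on background. BZIP70 was 2.26-fold lower (adjusted p = 0.00148) and BZIP125 was 3.2-fold lower (adjusted p = 0.0101), the last lost under 3 alternatives. Without endothelium array 1 the 14 calls became 9, and without array 2 they became 8.

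In epidermis, the outer layer of the seed coat, 3 members were higher (5.17%, background 7.9%) and 8 were lower (13.8%, background 6.35%). The 3 higher members were BZIP48, BZIP50 and BZIP101. BZIP132, GmbZIP33 and BZIP110 led the lower ones. BZIP48 was higher in epidermis than in each of the other 7 compartments.

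BZIP48 gave 588 and 1369.9 in epidermis, 201 and 348 in embryo proper, and 84.2 and 107 in hilum. The other captured signals were 4 and 2.5 in suspensor, 2.6 and 2.9 in endosperm, 3.5 and 26.6 in endothelium, 14.5 and 3.3 in inner integument, and 5.5 and 3.4 in outer integument; whole seed gave 271 and 385. Epidermis did not overlap with any other compartment, and all 10 arrays of the last 5 compartments were under the floor. The difference was 12.9-fold higher (log2 difference 3.69, SE 0.36, adjusted p = 7.88e-07). Epidermis passed against embryo proper, the next in order (adjusted p = 0.0143), embryo proper passed against hilum (adjusted p = 0.0332), and hilum did not pass against any of the other 5 (adjusted p = 0.160 to 0.217). The mean of the other 7, 69.5, lay under the background percentile of 163.3, and over the alternatives the fold ran from 7.77 to 58.8. It was 19.7 without epidermis array 1 and 8.46 without array 2.

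BZIP50, whose probe set name marks that it may bind related transcripts too, gave 1248 and 558 in hilum, 172 and 958 in epidermis, and 289.8 and 416 in embryo proper. It gave 28.1 and 101 in inner integument, 58.1 and 7.5 in endothelium, 3.9 and 58 in suspensor, 7.3 and 43.4 in endosperm, and 12.6 and 49.2 in outer integument; whole seed gave 1104 and 1089. Hilum, epidermis and embryo proper held the 6 highest captured arrays, with epidermis array 1 well below array 2. In epidermis it was 3.83-fold higher (adjusted p = 0.0104), a fold of 9.05 without array 1, and the call was lost under 4 alternatives, among them the fit without epidermis array 2 (adjusted p up to 0.552).

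BZIP101 gave 12532 and 8493 in outer integument, 6790.1 and 13667 in epidermis, 8856 and 9694 in hilum, 9771 and 6994 in endothelium, and 5844 and 5771 in inner integument. It gave 3807 and 3675 in embryo proper, 1803 and 3379 in suspensor, and 1605 and 1414 in endosperm; whole seed gave 2490.3 and 3220.2. Its epidermis arrays overlapped with those of 3 other seed coat parts. It was 1.98-fold higher (adjusted p = 0.00806), lost without epidermis array 2 (adjusted p up to 0.426). On the low side, BZIP132 was 9.21-fold lower (log2 difference -3.20, SE 0.44, adjusted p = 4.16e-05), a fold that was 21.8 without epidermis array 1 and 3.89 without array 2. Its epidermis signals of 280.4 and 24.8 stood against background percentiles of 136 and 216, and array 2 was under the floor. The BZIP132 epidermis mean of 118 was under both percentiles, so the size of the fold depends on background. GmbZIP33 was 2.81-fold lower (adjusted p = 0.000352), a fold of 4.42 without array 1 and 1.78 without array 2. BZIP110 was called lower (adjusted p = 0.0308), with both sides under the background percentile. The GmbZIP33 and BZIP110 calls were lost without epidermis array 2, which took the 11 calls of this compartment to 3, and leaving out the 3 high-background arrays took them to 4.

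In hilum, 8 members were higher (13.8%, background 12%) and 7 were lower (12.1%, background 9.19%). BZIP50, BZIP110 and BZIP132 led the higher members, and GmbZIP33, BZIP68 and BZIP53B the lower ones. BZIP50 was 8.73-fold higher (log2 difference 3.13, SE 0.49, adjusted p = 0.000128), and its other probe set tested gave a log2 difference of 3.59 (adjusted p = 5.44e-06). BZIP110 was 8.47-fold higher (adjusted p = 3.80e-05), where its other probe sets gave log2 differences of 1.53 and 0.08. The mean of the other 7 was under the background percentile of 159.5 for both genes. BZIP132, at 2631 and 2734.5 in hilum, was 3.84-fold higher (adjusted p = 0.00362), lost without hilum array 2 (adjusted p = 0.0605). Among the lower members, GmbZIP33 was 3.83-fold lower (adjusted p = 1.80e-05), BZIP68 was 3.56-fold lower (adjusted p = 4.02e-07) and BZIP53B was 2.06-fold lower (adjusted p = 0.00129). Without hilum array 2 the 15 calls became 7.

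**Figure D4:**
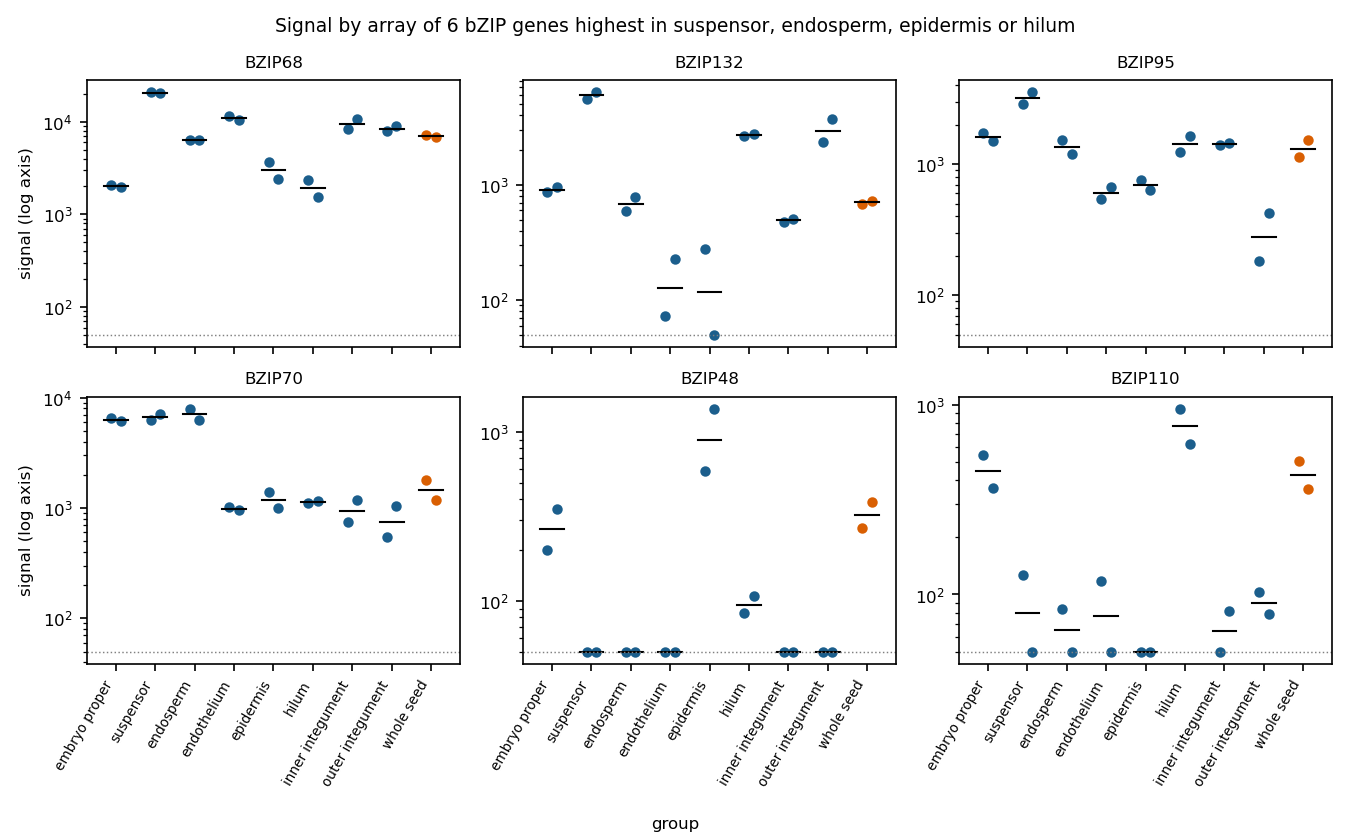
Signal on a log axis for 6 bZIP genes, with 2 points per group, bars at the geometric mean, whole seed in orange and the floor of 50 as a dotted line. BZIP68, BZIP132 and BZIP95 are highest in suspensor, BZIP70 is high in embryo proper, suspensor and endosperm, BZIP48 peaks in epidermis and BZIP110 in hilum and embryo proper.

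Counted by the stricter rule that a member be higher than in each of the other 7 compartments, with an adjusted p under 0.05 in all of those pairs, 8 of the 58 members (13.8%) had a single highest compartment, against 10.4% of all tested. BZIP68 and BZIP95 were highest in suspensor (background 2.56%), BZIP9 in endosperm (1.89%), BZIP48 in epidermis (0.344%), BZIP28 in inner integument (1.39%), and BZIP62, BZIP124 and BZIP125 in outer integument (1.38%). Of all probe sets tested, 1.56% were highest in embryo proper, 0.435% in endothelium and 0.823% in hilum by this rule. Over 29 fits, the one described here and its alternatives, BZIP68 kept this in 28, BZIP28 in 27, BZIP62 in 26, BZIP48 in 24, BZIP125 in 20, BZIP9 and BZIP95 in 14 each and BZIP124 in 9. The count fell to between 3 and 5 without either embryo proper, endosperm or inner integument array, without epidermis array 2, hilum array 1 or outer integument array 2, and without the 3 high-background arrays.

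Within the embryo, 7 members were higher in embryo proper than in suspensor (background 12.9%) and 9 were lower (background 11.7%), or 12.1% and 15.5% of members. BZIP126, BZIP124 and BZIP50 led on the embryo proper side. BZIP68, BZIP132 and BZIP62 led on the suspensor side. BZIP126 gave 4573 and 6475 in embryo proper against 605 and 412 in suspensor, 10.9-fold higher (log2 difference 3.45, SE 0.32, adjusted p = 1.85e-07). BZIP124 was 10.1-fold higher (adjusted p = 9.89e-06), a fold of 18.3 without suspensor array 1 and 5.62 without array 2. BZIP50 was 6.45-fold higher (adjusted p = 0.00429), a call lost without embryo proper array 2 (adjusted p = 0.0507). BZIP68 was 10.1-fold lower (log2 difference -3.34, SE 0.23, adjusted p = 6.07e-09), BZIP132 was 6.56-fold lower (adjusted p = 0.00171) and BZIP62 was 5.95-fold lower (adjusted p = 0.000213). None of these 6 genes had overlapping arrays. They were picked as the largest folds between 2 arrays and 2, so this adds nothing to their calls. The share of all probe sets without overlap here was not counted. The suspensor means of BZIP124 (90.1) and BZIP50 (53.9) lay under the background percentile of 176.6.

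Set against the 5 seed coat parts, the embryo (embryo proper and suspensor) had 7 higher members (12.1%, background 14.6%) and 13 lower members (22.4%, background 15.9%). BZIP70, BZIP42 and BZIP132 led the higher members, and BZIP114, BZIP1 and BZIP124 the lower ones. BZIP70 was 6.57-fold higher (log2 difference 2.72, SE 0.18, adjusted p = 1.95e-09) and BZIP42 was 6.23-fold higher (adjusted p = 7.28e-05), and their 4 embryo arrays did not overlap with the 10 seed coat arrays. BZIP132 was 4.1-fold higher (adjusted p = 0.000145) over the mean of both embryo parts, and its embryo proper signals of 870 and 949 lay inside the range of the seed coat arrays. BZIP114 was 7.18-fold lower (log2 difference -2.84, SE 0.19, adjusted p = 1.76e-09). BZIP1 was 6.72-fold lower (adjusted p = 8.84e-08) and BZIP124 was 6.54-fold lower (adjusted p = 1.38e-07), all without overlap. These members, like BZIP70 and BZIP42, were picked as the largest folds, so the lack of overlap adds nothing to their calls. Another probe set for BZIP1 gave a log2 difference of -1.56 (adjusted p = 0.000978).

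Whole seed was compared with the mean of the 8 captured compartments. Whole seed RNA was isolated with another reagent and is not labelled as captured by laser, so tissue, capture and extraction cannot be told apart in this comparison. Here 11 members were higher (19%, background 11.8%) and 2 were lower (3.45%, background 7.56%). BZIP16, BZIP50 and BZIP125 led the higher members. The 2 lower members were BZIP94 and BZIP101. Without whole seed array 2 the 13 calls became 8.

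BZIP16 gave 1995 and 2719.8 in whole seed. In the captures it gave 194 and 174 in embryo proper, 115 and 98.3 in endosperm, 122 and 14.3 in outer integument, and 30.3 and 101 in inner integument. It gave 94.5 and 30.5 in suspensor, 34 and 93.5 in epidermis, 32.9 and 47.5 in endothelium, and 16.4 and 11.2 in hilum. The highest captured signal was 193.5, and 8 of the 16 captured arrays were under the floor. The whole seed difference was 30.2-fold higher (log2 difference 4.91, SE 0.40, adjusted p = 2.18e-07), and from 21.1-fold to 42.0-fold over its alternatives. Among the captures the F-test did not pass (adjusted p = 0.0764) and no neighbours in the order of its compartments passed (adjusted p = 0.364 to 1), though embryo proper was 2.68-fold higher (adjusted p = 0.0142) against the other 7, a call lost under 3 alternatives. The mean of the captures, 77.3, lay under the background percentile of 164.9. The seed coat marker Ep was also far higher in whole seed, at 4450 and 3493 against at most 520 in the captures, and the part of what sets whole seed apart was not tested.

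BZIP94, whose probe set name marks that it may bind related transcripts too, was low in whole seed, at 176 and 177. Its captured signals were 1200.2 and 1397 in endosperm, 857 and 1625 in outer integument, 751 and 1224 in inner integument, and 808 and 1121 in epidermis. It gave 675 and 885 in hilum, 777 and 768 in embryo proper, 581 and 1017 in suspensor, and 789 and 488 in endothelium. On this probe set all 16 captured arrays were above both whole seed arrays. The gene's other probe set did not meet the minimum, with a mean log2 signal of 5.69, near the floor, so BZIP94 was read from the first alone. The whole seed difference was 5.05-fold lower (log2 difference -2.34, SE 0.29, adjusted p = 1.96e-05). Among the captures it had no call in any compartment and the F-test did not pass (adjusted p = 0.249), with neighbouring compartments at adjusted p = 0.655 to 1.

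BZIP50, at 1104 and 1089 in whole seed, was 8.76-fold higher (adjusted p = 0.000154), and BZIP125, at 3009 and 2979, was 8.32-fold higher (adjusted p = 5.98e-05). Both whole seed values lay inside the range of the captures, and BZIP50 reached 1248 in hilum and BZIP125 4109 in outer integument. BZIP101 was 1.87-fold lower (adjusted p = 0.0113), lost without either whole seed array (adjusted p = 0.229 at most). BZIP83 gave 318 and 188 in whole seed, above the 128 of its highest captured array, and was 3.73-fold higher (adjusted p = 0.000873). BZIP109 gave 883 and 847 against at most 756 in the captures and was 2.67-fold higher (adjusted p = 0.0113). The BZIP83 call was lost without whole seed array 1 (adjusted p = 0.0645) and the BZIP109 call without either whole seed array (up to 0.138).

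**Figure D5:**
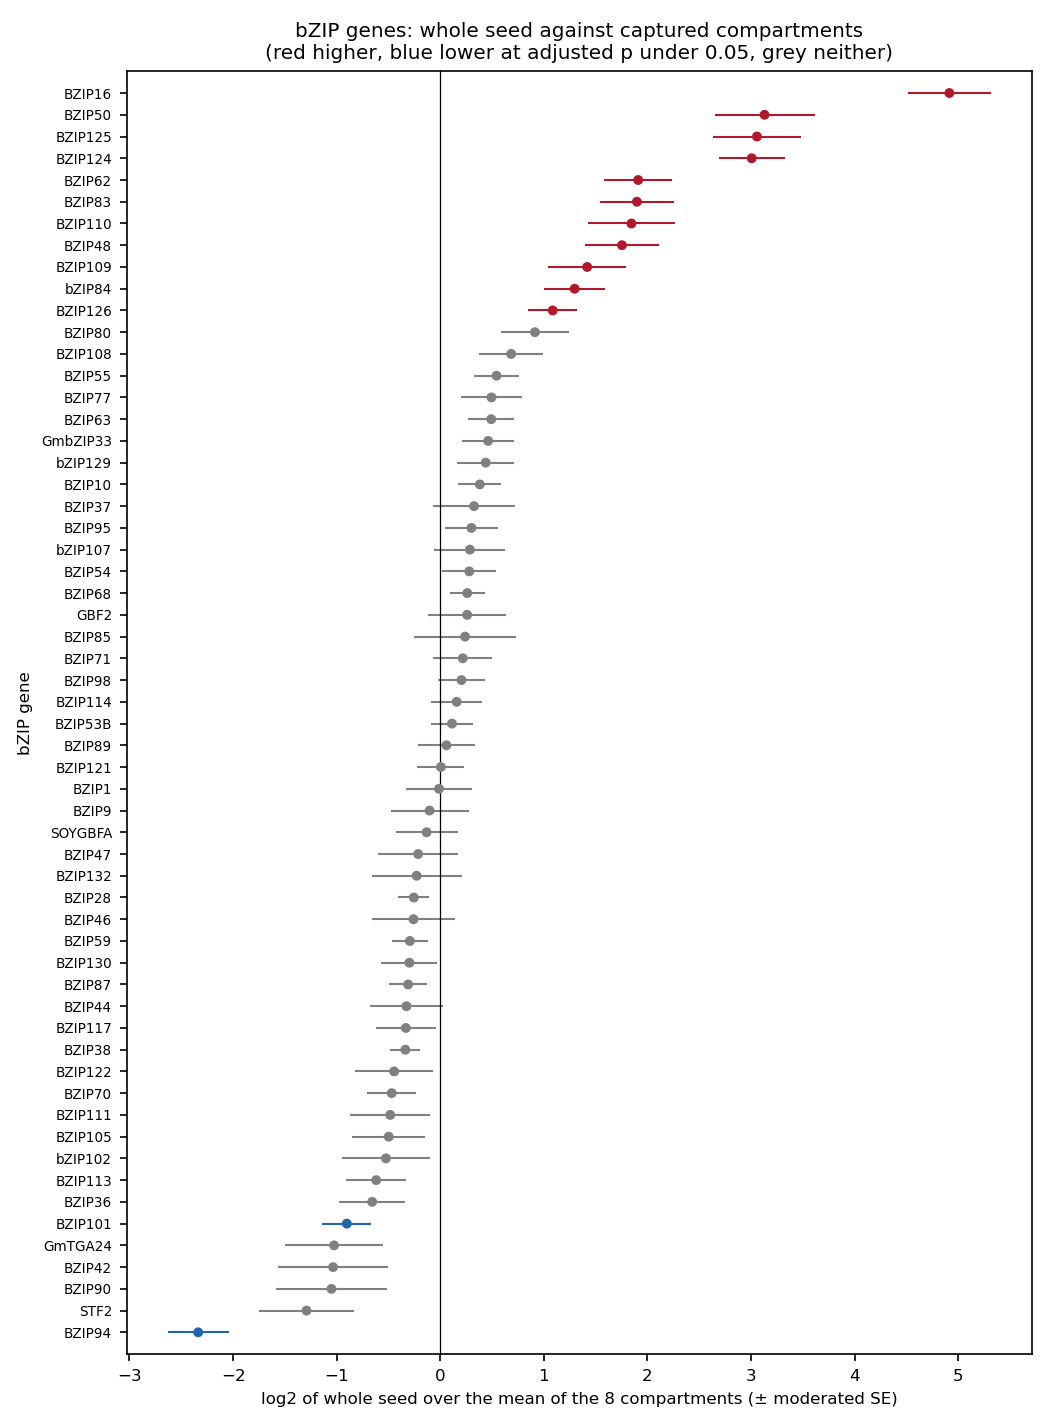
Points give the log2 ratio of whole seed over the mean of the 8 captured compartments for the 58 bZIP genes, with bars of 1 moderated standard error, red where higher and blue where lower at an adjusted p under 0.05, and grey otherwise. BZIP16 lies farthest to the right at 4.91 and BZIP94 farthest to the left at -2.34.

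Members whose names tie them to a known branch of the family were checked by role. Of the G-box binding factors, SOYGBFA (GBF1) had group means from 50 (endosperm) to 126 (outer integument) and lay under the background percentile on all 18 arrays, so no difference is given for it. GBF2 had means from 50 (embryo proper) to 214 (suspensor) and was 2.6-fold higher (adjusted p = 0.0105) in suspensor. Its suspensor signals were 155.5 and 295.6 against background percentiles of 191.4 and 161.9, and it was above that percentile on 5 arrays in all. The other probe set tested for GBF2 was highest in hilum, and the 2 profiles had a Pearson r of -0.499. Of the relatives of the light factor HY5, BZIP36 (SOYSTF1A) ran from 268 (endothelium) to 919 (suspensor) and was 1.92-fold higher (adjusted p = 0.0378) in suspensor. The other, STF2, ran from 108 (whole seed) to 423 (inner integument) and had no call on the probe set described. A second probe set of STF2 was also highest in inner integument, with a wider log2 range over compartments (3.02 against 1.72). The 2 profiles had a Pearson r of 0.175. GmTGA24, a TGA factor listed as LOC778136, ran from 50 (whole seed) to 312 (hilum) and was 3.6-fold higher (adjusted p = 0.00952) in hilum. That fold was 6.02 without hilum array 1 and 2.15 without array 2. Its hilum signals were 186.4 and 522.1 against background percentiles of 186.8 and 218.9, and it was above that percentile on 4 arrays in all. The calls of BZIP36, GmTGA24 and GBF2 were lost under 5, 2 and 1 alternatives (adjusted p up to 0.314, 0.294 and 0.223). BZIP44, whose listed name ties it to no branch, ran from 50 (embryo proper) to 90.8 (outer integument) and had no call. Like SOYGBFA, it lay under the background percentile on all 18 arrays.

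Several members were above the background percentile on all 18 arrays, with folds from 1.63 to 3.11 in the calls given here. BZIP59 had group means from 8359.6 (embryo proper) to 31301 (endothelium), and was 2.26-fold higher (adjusted p = 9.65e-05) in endothelium and 2-fold lower (adjusted p = 0.000337) in embryo proper. BZIP38 ran from 4441 (outer integument) to 11632 (suspensor) and was 1.92-fold higher (adjusted p = 7.01e-05) in suspensor. Its other probe set tested was also highest in suspensor, but the 2 profiles had a Pearson r of 0.151. BZIP28 ran from 3519 (epidermis) to 11675 (inner integument) and was 2.15-fold higher (adjusted p = 1.61e-05) in inner integument. These genes were measured in all 9 groups well above background. BZIP55 ran from 2158 (hilum) to 4903 (endosperm) and was 1.63-fold higher (adjusted p = 0.0177) in endosperm. BZIP87 ran from 1658 (inner integument) to 4118 (endosperm) and was 1.64-fold higher (adjusted p = 0.00564) there too. The other probe set tested was highest in epidermis for BZIP55 and in embryo proper for BZIP87. Its Pearson r with the one described was -0.466 for BZIP55 and -0.259 for BZIP87. BZIP10 ran from 391 (embryo proper) to 2363 (endosperm) and was 3.11-fold higher (adjusted p = 7.85e-06) in endosperm. Its other probe set did not meet the minimum, with a mean log2 signal of 5.64, that of the floor. BZIP55, BZIP87 and BZIP10 form, with GmbZIP33, BZIP53B, BZIP70 and BZIP9, the 7 members higher in endosperm. The BZIP55 call was lost under 3 alternatives (adjusted p up to 0.13) and the BZIP87 call under 1 (adjusted p = 0.0997).

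Of further members, BZIP71 had group means from 425 (endosperm) to 3333 (outer integument) and was 3.52-fold higher (adjusted p = 0.000106) in outer integument. The name of its probe set marks that it may bind related transcripts too. Its other probe set did not meet the minimum, with a mean log2 signal of 5.64, that of the floor. BZIP111 ran from 79.0 (endosperm) to 485 (inner integument) and was 2.79-fold higher (adjusted p = 0.00723) in inner integument. Its other probe set tested was highest in epidermis, and the 2 profiles had a Pearson r of -0.267. BZIP63 ran from 540.0 (hilum) to 1384 (inner integument) and was 1.88-fold higher (adjusted p = 0.00478) in inner integument. BZIP54 also was higher in that layer, ran from 798 (embryo proper) to 1966 (inner integument) and was 1.81-fold higher (adjusted p = 0.0202). BZIP85 ran from 100.1 (suspensor) to 612 (hilum) and was 3.05-fold higher (adjusted p = 0.0279) in hilum. BZIP130 ran from 813 (endosperm) to 2820.1 (endothelium) and was 2.2-fold higher (adjusted p = 0.00605) in endothelium. BZIP90, lowest in embryo proper where both arrays were under the floor, ran from 50 (embryo proper) to 290.0 (endothelium) and was at least 3.18-fold lower (adjusted p = 0.0321) in embryo proper. Its other probe sets tested were highest in inner integument, endosperm and suspensor, with Pearson r of 0.626, -0.184 and 0.185 to the one described. BZIP121 ran from 640.5 (endosperm) to 1653 (suspensor) and was 1.98-fold lower (adjusted p = 0.00272) in endosperm. BZIP108 ran from 364 (suspensor) to 999.8 (whole seed), and its lower call in suspensor was lost under 17 of 28 alternatives (adjusted p up to 0.833). BZIP113 ran from 366 (suspensor) to 948 (epidermis) and BZIP98 from 794 (endothelium) to 1811 (suspensor), and their compartment calls were 1.81-fold lower (adjusted p = 0.039) and 1.65-fold higher (adjusted p = 0.0246) in suspensor. The BZIP113 call was lost under 10 of 28 alternatives (adjusted p up to 0.296), that of BZIP85 under 5 (up to 0.163), of BZIP90 under 4 (up to 0.265), of BZIP54 under 3 (up to 0.199) and of BZIP130 under 2 (up to 0.0799). Those of BZIP63 and BZIP111 were lost without inner integument array 2 and that of BZIP98 without suspensor array 1.

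The remaining members had no call in any compartment. They were BZIP37, with group means from 114 (epidermis) to 324 (endosperm), BZIP47, from 58.1 (endosperm) to 143 (hilum), and BZIP80, from 466 (endosperm) to 1349 (whole seed). BZIP89 ran from 524 (outer integument) to 947 (embryo proper), BZIP117 from 238 (outer integument) to 464 (suspensor) and BZIP122 from 154 (outer integument) to 392 (suspensor). BZIP83 ran from 50 (suspensor) to 244 (whole seed) and BZIP109 from 227 (endosperm) to 865 (whole seed), and both were called in whole seed. Of those known by a synonym, bZIP102 ran from 50 (endothelium) to 144 (inner integument), bZIP107 from 211 (suspensor) to 394 (embryo proper) and bZIP129 from 472 (endosperm) to 870.5 (whole seed). The pairs BZIP108 and BZIP109, BZIP37 and BZIP38, and bZIP129 and BZIP130 share probe set stems, and their profiles over 8 compartment means had Pearson r of 0.504, 0.222 and -0.0621.

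Genes that act with or below bZIP factors in seeds were read in the same way. Of the abscisic acid and maturation regulators listed, 2 could be read, LEC1-A, a soybean relative of the Arabidopsis maturation regulator LEC1, and ZEP, the zeaxanthin epoxidase of abscisic acid synthesis. LEC1-A gave 5038 and 4675 in embryo proper and 6399 and 7176 in suspensor, then 2071 and 2546 in endosperm and at most 342 in the seed coat. It was 47.5-fold higher (adjusted p = 4.56e-12) in embryo than in seed coat. ZEP gave 2515 and 3124 in embryo proper but 179 and 96.1 in suspensor, and was 21.4-fold higher (adjusted p = 8.61e-06) in embryo proper than in suspensor. BZIP1 (AREB1) was lowest on the arrays of embryo proper, where both LEC1-A and ZEP were high.

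Of 32 late embryogenesis and maturation genes, 28 were higher (87.5%, background 14.6%) and 1 lower (3.12%, background 15.9%) in embryo than in seed coat. The median log2 difference was 3.22 against -0.09 for all tested. In suspensor 29 were higher (90.6%, background 12.7%) and 1 lower (3.12%, background 14.3%) than in the other 7 (median 5.0 against -0.11). Embryo proper was higher than suspensor for 1 (3.12%, background 12.9%) and lower for 24 (75%, background 11.7%). The exception in each of these comparisons was LEA-2, picked out after seeing its values, which was 8.99-fold lower (adjusted p = 1.75e-07) in suspensor. Some of the 32 genes met the minimum only through the 2 suspensor arrays and so had to differ there. Among them were PM39 (at most 83 on any other array) and PM24 (at most 94.5). These counts therefore describe the list and support nothing further. Of the 7 seed storage genes, 1 was higher in embryo proper (14.3%, background 12.3%), near the share of all tested. It was the glycinin gene A1, 46.5-fold higher (adjusted p = 2.09e-07). A1 was already chosen as an embryo marker, so this adds nothing to the marker check. The other 6 had no call there and gave at most 289 on any array. In the suspensor comparison 11 bZIP members were higher and 15 lower, with a median log2 difference of -0.11.

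For 3 members the named genes with the most similar profile were found by Pearson r over the 8 compartment means, among 928 genes, as a description. BZIP16 was nearest to ALDH5F2 (r = 0.937), ZEP (0.926) and MT2 (0.873), all highest in embryo proper. BZIP48 was nearest to MSH1 (0.776), EDS1-2 (0.763) and PSK1 (0.762), and BZIP94 to HSP22.3 (0.940), ERF5 (0.909) and N-70 (0.882). The 8 points of each profile rest on the same 16 arrays. BZIP16 and BZIP94 did not pass the F-test, and the captured mean of BZIP16 lay under background, so these 2 orders of likeness rest on differences that were not shown. The N-70 means, from 50.2 to 87.0, lay under background as well. BZIP48 was at the floor of 50 in suspensor, endosperm, endothelium and both integuments. Its order of likeness therefore rests mainly on epidermis, embryo proper and hilum.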

How the data were processed

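Biotinylated RNA from 2 ng of amplified total RNA of each sample was hybridized to the Affymetrix Soybean Genome Array. The authors deposited signal intensity on a linear scale, 1 value per probe set, computed with GCOS 1.3 per the submitters' processing notes. Its settings are not given in the sources used here. The 2% trimmed mean was 500.0 to 500.1 on every array, and 12 values were 0. Genes came from the probe annotation and the RefSeq gene table of soybean, used for names alone. No coordinates or sequences were used.

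Members were bZIP genes with a probe set of their own, 103 probe sets in all, of which 89 passed the minimum, and 6 probe sets matched to several genes were left out. Where a gene had several probe sets, the one of highest mean log2 signal stood for it, and 10 genes are read from a probe set with an a, s or x suffix. A further 22 bZIP genes of the gene table had no probe set of their own here. Of the members, 6 are listed by LOC numbers and are named by a synonym. With limma 3.58.1 in R 4.3.3, a mean per group was fitted to log2 signals (floor 50) of all 31961 probe sets, with a variance trend, and 11 contrasts, 28 pairs and an F-test over compartments were adjusted by Benjamini and Hochberg over all probe sets. The code was tested on simulated data. Alternatives were floors, filters, the variance trend, normalization, arrays left out, other probe sets and a replicate block. Named members were BZIP16, BZIP48 and BZIP94, the 10 of widest compartment range and up to 3 higher and 3 lower per contrast, and the rest are given by the range of group means. The members, lists and tests were chosen with earlier results of these data known.

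Same-numbered arrays did not deviate together: the correlation of deviations over 36 pairs of groups ran from -0.0731 to 0.0829, so the numbers were not taken to pair the samples.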

Additional observations from a re-analysis of the deposited data

How the results depend on the processing

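Over up to 28 alternatives each, 94 of the 195 calls of members kept their call and 101 lost it in at least 1, 44 of them only when an array was left out, and 0 changed direction. Leaving out each of the 18 arrays in turn moved the number of members called in embryo proper between 9 and 21, in suspensor between 15 and 26, in endosperm between 13 and 23, in endothelium between 8 and 15, in hilum between 7 and 17, in inner integument between 13 and 24, in outer integument between 11 and 20 and in epidermis between 3 and 14. It moved the number for embryo proper against suspensor between 13 and 18, for embryo against seed coat between 18 and 22, for whole seed between 8 and 16, for the F-test between 35 and 40, and for a single highest compartment between 3 and 7 (8 in the fit to all arrays). Without epidermis array 2, inner integument array 1 and outer integument array 1 together, the members called numbered 14 in inner integument, 11 in outer integument and 4 in epidermis, and 3 had a single highest compartment. That last number was 4 with a floor of 25, 4 with no floor and 5 without a variance trend. A replicate block gave 18 calls in embryo proper, 25 in suspensor, 22 in endosperm, 14 in endothelium, 11 in epidermis, 16 in hilum, 23 in inner integument, 18 in outer integument, 16 for embryo proper against suspensor, 21 for embryo against seed coat, 14 for whole seed, 41 by the F-test and 7 with a single highest compartment, and changed no count by over 1.5 times. Fewer arrays are in the fits that leave arrays out, and for the other changes the cause was not tested. Quantile normalization moved the median of all probe sets by 0.13 on the log2 scale in endosperm, by over 0.1 in 2 contrasts, and no call of a member changed direction under it. Of the 195 calls, 56 had a lower side under the background percentile, where the size of a fold depends on background, and 14 had it wholly under the floor. Of 126 called comparisons that a further probe set of the same gene could check, 27 differed in sign there, none of them called by limma in both probe sets.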
